A study of Mus musculus with 6 samples.

Results

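The time course of serum miRNAs in FK506-treated recipients of a sciatic nerve allograft was followed in 3 of the 6 libraries of the series, 1 library each at days 3, 7 and 14 after surgery. FK506 (tacrolimus), an immunosuppressant that inhibits calcineurin in T cells, was given subcutaneously at 1 mg/kg per day throughout. The mice were males of 10 to 12 weeks, the donors were Balb/c, and a nerve graft of 1 cm was sutured in reverse orientation into a gap of 0.5 cm. The labels give C57BL/6 as the strain of every sample, while the design text calls the recipients C57BL/6 in one sentence and Balb/c in another. The untreated arm, used only for values set side by side, had the same surgery and the same days with no FK506. The design gives 3 animals per group and day, but the sources used here do not say if 1 library is 1 animal or several pooled. Blood was drawn into tubes with anticoagulant, and the fluid is called serum as in the labels.

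Of the 1281 mature miRNA entries in the table, 128 had 50 or more reads in at least 1 of the 3 FK506 libraries and are called measured here. Of these, 80 reached 50 reads at all 3 days, 12 at a pair of days, 35 at day 14 alone and 1 at day 3 alone. The 35 entries seen at day 14 alone came in through the deepest library, so a higher value at day 14 was in part built into their choice. Just above the limit, miR-1306-5p had 14, 11 and 51 reads at days 3, 7 and 14, and just below it, miR-145a-5p had 35, 5 and 49. A further 325 entries had a read but stayed under the limit, and together they held 782, 828 and 2417 reads. With 1 library per day there is no replicate check and no p-value. Every difference below compares libraries, and the intervals are exact 95% intervals of a ratio of 2 counts that cover counting error only.

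miRNAs are RNAs of about the length of the reads counted here that pair with messenger RNAs, mainly through the seed, the bases 2 to 8 from the 5′ end, and lower their translation and stability. In serum they are carried in vesicles and protein complexes released by many tissues, and a large share comes from blood cells, so a circulating level reflects release, lysis and clearance together. More cells of a type and more release per cell cannot be told apart in serum.

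The mature sequences of the miRNAs on which the time course turned are shown here because members of the same seed group moved unlike each other in several cases. Of the 128 measured entries, 106 matched a RefSeq mature sequence by name. The sequences are RefSeq's (GRCm38), and the capitals mark the seed.
miR-10b-5p: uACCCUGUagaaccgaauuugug
miR-10a-5p: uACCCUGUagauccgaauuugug
miR-30a-5p: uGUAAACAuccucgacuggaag
miR-30e-5p: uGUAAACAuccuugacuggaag
miR-25-3p: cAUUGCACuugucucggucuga
miR-92a-3p: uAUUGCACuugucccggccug
miR-92b-3p: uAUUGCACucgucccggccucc
miR-192-5p: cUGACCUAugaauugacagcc
miR-215-5p: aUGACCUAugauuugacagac
miR-148a-3p: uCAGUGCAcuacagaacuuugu
miR-148b-3p: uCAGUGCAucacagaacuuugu
miR-21a-5p: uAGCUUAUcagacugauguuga
miR-199a-3p: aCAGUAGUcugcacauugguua
miR-574-3p: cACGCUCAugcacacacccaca
miR-423-5p: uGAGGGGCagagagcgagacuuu
miR-1981-5p: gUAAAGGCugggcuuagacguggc

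Positions are counted from 1 at the 5′ end. miR-10a-5p and miR-10b-5p differed by the single substitution U12A, with the base of miR-10a-5p first, and miR-30e-5p and miR-30a-5p by U13C. miR-148b-3p and miR-148a-3p differed by U9C and C10U. How many mismatches the matching to miRBase allowed is not stated in the labels, so reads of such near copies may have been counted at either entry. By RefSeq's coordinates and the GENCODE vM21 annotation (both GRCm38), miR-10b-5p lies on chromosome 2, 74726074 to 74726096 on the plus strand, in introns of Hoxd3 and Hoxd4. miR-10a-5p lies on chromosome 11, 96317186 to 96317208 on the plus strand, in no other annotated gene. miR-25-3p, on chromosome 5 from 138165332 to 138165353 on the minus strand, overlaps an annotated exon of Mcm7. The mature miR-92a-3p comes from 2 loci, chromosome 14 from 115044476 to 115044496 on the plus strand, in an exon of the long noncoding Mir17hg, and chromosome X from 52741854 to 52741874 on the minus strand, in no other gene. miR-215-5p, on chromosome 1 from 185313610 to 185313630 on the plus strand, is in an intron of Iars2 on the opposite strand and in an exon of a noncoding gene on its own strand. miR-192-5p lies on chromosome 19, 6264857 to 6264877 on the plus strand, in no other gene. miR-574-3p, on chromosome 5 from 64970364 to 64970385 on the plus strand, is in an intron of Fam114a1, and miR-423-5p, on chromosome 11 from 77078122 to 77078144 on the minus strand, is in an intron of Nsrp1.

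The first change between days was in the makeup of the library as a whole. The erythroid miR-486-5p and the entry miR-3107-5p, whose counts were 99.7%, 99.8% and 99.7% of those of miR-486-5p at days 3, 7 and 14, took nearly all reads and are read as a single signal. In the counts of entries below, each is still counted on its own. The reads outside this pair made up 2.09% of the total at day 3 (interval 2.08% to 2.11%), 2.03% at day 7 (2.02% to 2.05%) and 6.18% at day 14 (6.16% to 6.20%). The day 3 and day 7 libraries were thus alike in this share and the day 14 library held about 3 times as much. In reads these were 104574, 103058 and 359061, of totals of 4992998, 5068245 and 5806228. Of the difference of day 14 from day 7 outside the pair, 65.8% lay in 10 entries, led by miR-10b-5p with 46535 more reads (18.2%), miR-25-3p with 35724 (14.0%) and miR-30a-5p with 19162 (7.49%). Such a difference in share can be less of the pair or more of the rest, and these counts cannot tell them apart.

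How this is scaled bears on everything that follows. Levels are given as CPM, counts scaled by an effective library size from TMM, which sets the bulk of miRNAs level between libraries. Scaled instead to the library total, all log2 ratios of day 14 against day 7 are higher by 1.49 and those of day 14 against day 3 by 1.58, while those of day 7 against day 3 are higher by 0.09. Scaled to the reads outside the pair, the shifts are -0.12, 0.02 and 0.13, so TMM stayed close to that simple scale. Differences between miRNAs of 1 library, and ratios of 1 miRNA to another, are free of this choice.

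**Figure D1:**
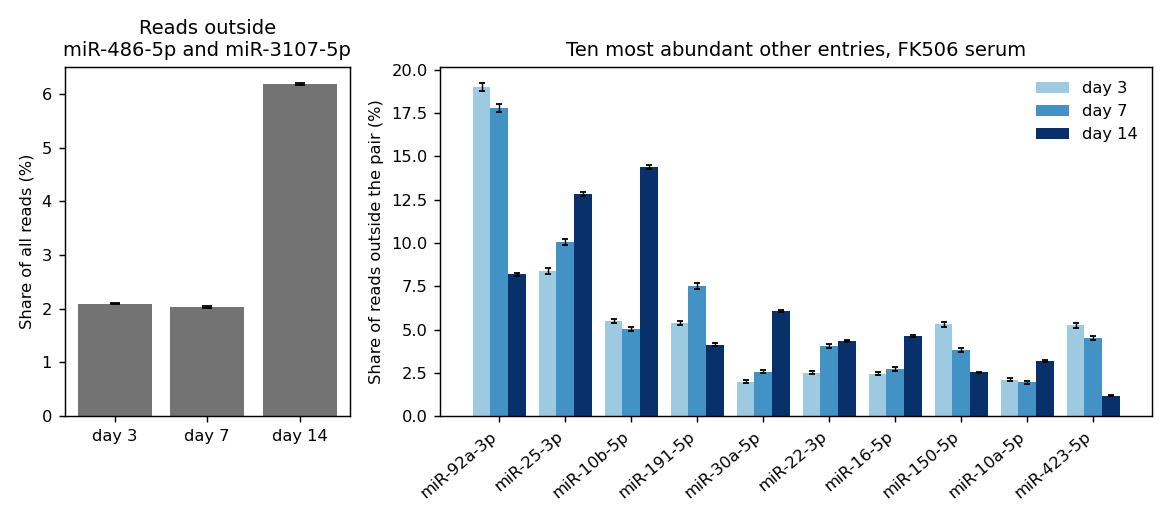
Left, share of all reads outside miR-486-5p and miR-3107-5p (%) in FK506 serum by day. Right, share of the reads outside the pair (%) taken by the 10 most abundant other entries at days 3, 7 and 14; bars are single libraries and error bars exact 95% counting intervals. miR-92a-3p takes 19.0%, 17.8% and 8.19%, while miR-10b-5p takes 5.49%, 5.03% and 14.4%.

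Within the reads outside the pair the leading miRNA changed. miR-92a-3p, of the miR-17 to miR-92 cluster and abundant in red cells, led at days 3 and 7 with 19.0% and 17.8% of these reads and held 8.19% at day 14 (interval 8.10% to 8.28%). miR-10b-5p, encoded in the Hoxd cluster, held 5.49%, 5.03% and 14.4% (14.3% to 14.5%) and led at day 14. miR-25-3p held 8.38%, 10.0% and 12.8%, and miR-30a-5p held 1.98%, 2.57% and 6.08%. miR-423-5p went the other way, with 5.24%, 4.52% and 1.18%, as did the lymphocyte miRNA miR-150-5p, with 5.29%, 3.81% and 2.52%. These shares do not depend on TMM.

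Day 7 against day 3 asked how serum moved in the first days under FK506. Most miRNAs stayed within 2-fold: 84 of 93 entries with 50 reads in either library did. The size rule was a log2 ratio past 1 or -1 with 50 reads in either library. By it 3 of 93 were higher (3.23%) and 6 lower (6.45%). The 3 higher were miR-574-3p, let-7d-3p and miR-6243, and the 6 lower were miR-215-5p, miR-21a-5p, miR-101a-3p, miR-1981-5p and the identically counted miR-199a-3p and miR-199b-3p. The median log2 ratio over the compared entries was -0.09, and 10% of them lay under -0.82 and 10% over 0.59.

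The largest difference among abundant miRNAs was in miR-215-5p, which shares its seed with miR-192-5p and is made in the intestine. It had 1757, 578 and 7034 reads at days 3, 7 and 14, or 505, 154 and 582 CPM, and was 3.28-fold lower at day 7 than at day 3 (interval 2.99 to 3.61). The day 7 library stood below both others. miR-21a-5p, induced in inflammation and injury in many tissues, had 802, 406 and 3114 reads (231, 108 and 258 CPM) and was 2.13-fold lower at day 7 (1.89 to 2.41). miR-199a-3p, of mesenchymal cells and platelets, had 104, 53 and 447 reads and was 2.12-fold lower at day 7 (1.51 to 3.01). Among the higher entries let-7d-3p, the strand opposite let-7d-5p in its precursor, had 242, 529 and 756 reads and was 2.02-fold higher at day 7 (1.74 to 2.37). At day 3 miR-574-3p had 18 reads, and miR-6243 had 25, 60 and 67, so their intervals are wide.

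Day 14 against day 7 asked how serum moved in the following week, and here the spread was broader. Of 127 entries, 25 were higher (19.7%) and 19 lower (15%), and 83 stayed within 2-fold. Scaled to the library total, 86 would be higher and 0 lower. Of the 25 higher, 10 reached 50 reads at day 14 alone and 13 reached it at all 3 days. Of the 19 lower, 3 and 13 did. The 19 include both miR-486-5p and miR-3107-5p, a single signal. The median log2 ratio over the 80 entries seen at every day was -0.08, and over all 128 measured it was 0.21.

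**Figure D2:**
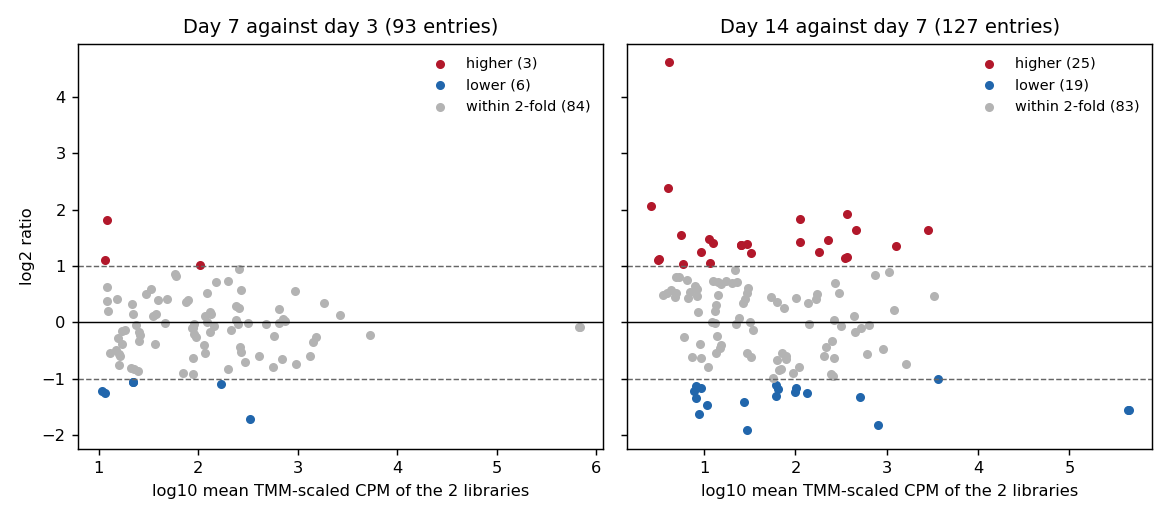
Log2 ratio of each compared entry against the log10 of its mean TMM-scaled CPM in the pair of libraries, for day 7 against day 3 (left, 93 entries) and day 14 against day 7 (right, 127 entries); dashed lines mark a 2-fold difference. By the size rule 3 points lie above and 6 below the lines on the left, and 25 above and 19 below on the right.

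Several of the miRNAs that were higher at day 14 had many reads at every day. miR-10b-5p had 1650, 1380 and 4281 CPM at days 3, 7 and 14 and was 3.10-fold higher at day 14 than at day 7 (3.01 to 3.19), from 51721 against 5186 reads. Its near copy miR-10a-5p, encoded in the Hoxb cluster, had 628, 532 and 951 CPM and was 1.79-fold higher (1.70 to 1.87), short of the size rule. Within a library, the ratio of miR-10b-5p to miR-10a-5p was 2.63 at day 3 (2.50 to 2.76), 2.59 at day 7 (2.46 to 2.73) and 4.50 at day 14 (4.41 to 4.60). The balance of the pair was thus the same at days 3 and 7 within counting error and shifted by day 14. These ratios between miRNAs of 1 library were chosen after the values were seen.

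The miR-30 members, broadly expressed miRNAs of epithelia, muscle and kidney, were also among the higher ones. miR-30a-5p had 596, 706 and 1806 CPM and was 2.56-fold higher at day 14 than at day 7 (2.46 to 2.66). miR-30e-5p had 114, 122 and 337 CPM and was 2.76-fold higher (2.51 to 3.05). The family did not move as a block. miR-30d-5p had 483, 476 and 421 CPM, and the ratio of miR-30a-5p to miR-30d-5p was 1.23 (1.16 to 1.32), 1.48 (1.40 to 1.58) and 4.28 (4.16 to 4.42) at days 3, 7 and 14.

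The gut and liver pair of the UGACCUA seed was higher as well. miR-192-5p, a liver and gut miRNA, had 361, 223 and 692 CPM and was 3.11-fold higher at day 14 than at day 7 (2.89 to 3.34). miR-215-5p was 3.78-fold higher (3.48 to 4.13), and at day 14 it stood 1.15-fold above day 3 (1.09 to 1.22). The ratio of miR-215-5p to miR-192-5p was 1.40 at day 3 (1.30 to 1.51), 0.691 at day 7 (0.620 to 0.769) and 0.841 at day 14 (0.815 to 0.868). Others past the size rule with over 100 reads at every day included miR-126-5p, of endothelium and platelets, with 316, 182 and 2099 reads (3.59-fold higher at day 14 than at day 7, 3.08 to 4.20), miR-148a-3p with 400, 229 and 1995 reads (2.71-fold) and miR-143-3p, of smooth muscle, with 1054, 842 and 6070 reads (2.24-fold, 2.09 to 2.41).

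Lower at day 14 were the red cell pair and several miRNAs of high GC content. miR-486-5p had 2448326, 2485505 and 2727053 reads and, on the TMM scale, was 2.93-fold lower at day 14 than at day 7 (2.93 to 2.94), while scaled to the total its log2 ratio was -0.06. Its opposite strand miR-486-3p had 2422, 2735 and 3492 reads and was 2.52-fold lower (2.39 to 2.65). miR-423-5p, a miRNA often abundant in plasma, had 5478, 4663 and 4241 reads and was 3.54-fold lower (3.39 to 3.69). Its reads were fewer at day 14 than at day 7 although the library outside the pair was deeper. miR-92b-3p had 162, 174 and 145 reads, 3.86-fold lower (3.08 to 4.84), and miR-92a-3p was 2.00-fold lower (1.97 to 2.04). Others lower by more than 2-fold included miR-423-3p (2.38-fold), miR-328-3p (2.36-fold), let-7d-3p (2.25-fold) and miR-181a-2-3p (2.69-fold). On fewer reads, miR-15b-5p was 2.67-fold lower (1.75 to 4.06, on 53 reads at day 14 and 44 at day 7). miR-1964-3p was 3.28-fold lower (2.18 to 4.95, on 50 reads at day 14 and 51 at day 7). On the library total, miR-92a-3p, miR-486-3p, miR-423-3p, miR-328-3p, let-7d-3p, miR-181a-2-3p and miR-15b-5p change sign.

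Several of the highest ratios rested on few reads. miR-24-3p had 8, 4 and 85 reads and was 6.61-fold higher at day 14 than at day 7 (2.49 to 24.8). miR-148b-3p had 19, 3 and 54 reads, a ratio of 5.60 with an interval of 1.82 to 28.0. miR-378d, of the miR-378 family, had 0 reads at days 3 and 7 and 99 at day 14. Its counting interval for day 14 against day 7 starts at 8.19-fold higher. With the day 7 library set at a floor of 3 reads, the ratio is 10.3-fold. It also had 0 reads at every day of the untreated arm, so it was seen in a single library of the series. Its relative miR-378c had 40, 30 and 110 reads and miR-378a-3p had 514, 928 and 2193, both within 2-fold at each step.

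Over the whole course, day 14 against day 3, 13 of 128 entries were higher (10.2%) and 21 lower (16.4%), or 92 and 0 scaled to the library total. Of the 13 higher, 8 reached 50 reads at day 14 alone and 3 at every day, namely miR-30a-5p at 3.03-fold, miR-30e-5p at 2.97-fold and miR-10b-5p at 2.60-fold. Of the 21 lower, 17 reached 50 reads at every day. The 21 also include both miR-486-5p and miR-3107-5p. This comparison uses the same libraries as the steps and adds no independent evidence.

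The shape of each course was read from its steps. A step was counted up or down when its log2 ratio was at least 0.5 or at most -0.5 and its counting interval lay on that side of 1, and level otherwise. Of 128 entries, 1 rose at both steps (0.781%), 5 fell at both (3.91%), 9 peaked at day 7 (7.03%) and 15 had a trough at day 7 (11.7%). A change at the first step alone was seen upward in 5 (3.91%) and downward in 6 (4.69%). A change at the second step alone was upward in 26 (20.3%) and downward in 27 (21.1%), and 34 were level at both (26.6%). Many of these 26 entries, miR-24-3p, miR-378d and miR-126-3p among them, reached 50 reads at day 14 alone. Their upward step was thus in part built into their choice. The 27 include both miR-486-5p and miR-3107-5p, a single signal. The steps share the day 7 library, so any error of that library moves them in opposite directions and adds to the turning classes.

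**Figure D3:**
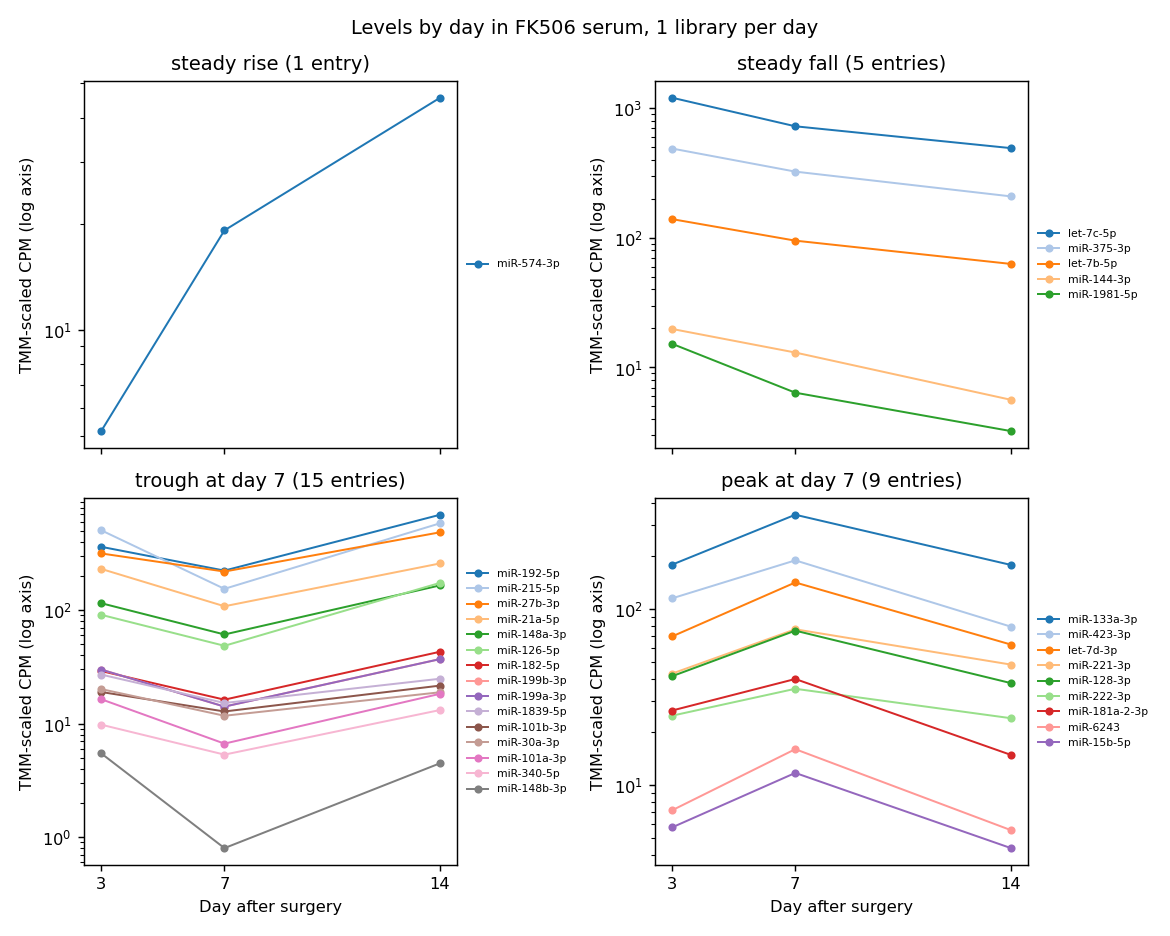
TMM-scaled CPM (log axis) by day in FK506 serum for the entries that rose at both steps, fell at both, had a trough at day 7 or peaked at day 7; each point is 1 library, the panels have different scales, and the lines of miR-199a-3p and miR-199b-3p coincide. In the trough panel miR-215-5p stands at 505, 154 and 582 CPM and miR-192-5p at 361, 223 and 692 CPM, so their lines cross.

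The only entry that rose at both steps was miR-574-3p, from an intron of Fam114a1. It had 18, 72 and 550 reads, or 5.17, 19.2 and 45.5 CPM, with a 3.70-fold first step (2.19 to 6.60) and a 2.38-fold second step (1.86 to 3.08). Each day stood above the one before, and day 14 was 8.80-fold above day 3 (5.51 to 15.0). A weaker upward drift, under the step limit at one or both steps, was seen in miR-30c-5p with 119, 170 and 744 reads (log2 ratios of 0.40 and 0.44) and in miR-186-5p with 345, 537 and 2313 reads (0.53 and 0.42).

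The 5 entries that fell at both steps were let-7c-5p, let-7b-5p, miR-375-3p, miR-144-3p and miR-1981-5p. let-7c-5p, of the differentiation-associated let-7 family, had 1209, 727 and 493 CPM, 1.66-fold lower at day 7 than at day 3 (1.58 to 1.74) and 1.47-fold lower at day 14 than at day 7 (1.41 to 1.54). let-7b-5p, which lies next to a copy of let-7c-5p on chromosome 15, had 140, 95.3 and 63.0 CPM. miR-375-3p, of pancreatic islets and gut endocrine cells, had 490, 325 and 209 CPM, with steps of 1.51-fold (1.40 to 1.62) and 1.55-fold (1.45 to 1.66) lower. miR-144-3p, an erythroid miRNA, had 69, 49 and 68 reads and was 3.52-fold lower at day 14 than at day 3 (2.48 to 5.00), and miR-1981-5p had 53, 24 and 39 reads, 4.72-fold lower (3.06 to 7.33). miR-150-5p came close to this class, with 1590, 1045 and 750 CPM and log2 ratios of -0.61 and -0.48. In reads, let-7c-5p, let-7b-5p and miR-375-3p were higher at day 14 than at day 3, in a library deeper outside the pair. These falls are on the TMM scale: scaled to the library total, 0 entries fell at both steps and 11 rose at both. Scaled to the reads outside the pair, 2 of the 5 remained. With TMM over the 3 FK506 libraries 2 of the 5 remained, and with TMM over all entries with a read 3 did. All 5 remained with median-of-ratios factors.

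The 15 entries with a trough at day 7 included miR-192-5p and miR-215-5p of gut and liver. From the liver list described below they also held miR-148a-3p, miR-101a-3p and miR-101b-3p, which are made in other tissues too. They also included miR-126-5p, miR-199a-3p and miR-199b-3p of endothelial and mesenchymal cells and miR-21a-5p. The others were miR-27b-3p, miR-182-5p, miR-1839-5p, miR-30a-3p, miR-340-5p and miR-148b-3p. miR-145a-5p, of smooth muscle and just under the 50-read limit, had 35, 5 and 49 reads. The defining liver marker miR-122-5p, also under that limit, had 30, 26 and 1 reads and so no trough. The members with under 50 reads at day 7, such as miR-101a-3p with 57, 25 and 221 reads, have wide intervals.

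Of the 9 peaks at day 7 (0 on the library total), the most abundant was the muscle miRNA miR-133a-3p. It had 618, 1281 and 2138 reads, or 178, 341 and 177 CPM, 1.92-fold higher at day 7 than at day 3 (1.74 to 2.12) and 1.93-fold lower at day 14 than at day 7 (1.80 to 2.07), so that days 3 and 14 were alike. The nerve-injury miRNAs miR-221-3p and miR-222-3p, which share a seed and a locus on chromosome X, both peaked, with 42.8, 76.4 and 48.2 CPM and 24.7, 35.1 and 23.9 CPM. miR-128-3p, abundant in brain and also made elsewhere, had 144, 282 and 457 reads (41.4, 75.1 and 37.8 CPM). The defining neuronal miRNAs miR-9-5p and miR-124-3p had 0 reads in all 3 FK506 libraries. The other peaks were let-7d-3p, miR-423-3p, miR-181a-2-3p, miR-6243 and miR-15b-5p, the last with 20, 44 and 53 reads.

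By source, miRNAs were described with 16 lists, 15 of which had at least 3 measured members. The median log2 ratio over all 128 measured entries was -0.04 at the first step (day 7 against day 3) and 0.21 at the second (day 14 against day 7), and the list medians are to be read beside these. Counts of called members are to be read beside the shares over all compared entries, 3.23% higher and 6.45% lower at the first step and 19.7% higher and 15% lower at the second.

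The vascular and mesenchymal list differed in shape among its members: miR-126-5p and miR-199a-3p with miR-199b-3p had a trough at day 7, miR-143-3p and miR-126-3p were higher at the second step alone, and miR-574-3p rose at both steps. Of its 6 measured members, 5 had the reads to be compared between days 7 and 3, of which 1 was higher and 2 lower, with a median of -0.67 over the 6. For day 14 against day 7 all 6 were higher, against 19.7% of all compared entries, with a median of 1.30 and a range of 1.05 to 1.84. Over the 4 members seen at every day the medians were -0.98 and 1.37. The counts of miR-199a-3p and miR-199b-3p are identical and make a single signal, and miR-126-3p reached 50 reads at day 14 alone. Summed over the list, it had 476, 330 and 819 CPM at days 3, 7 and 14.

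The liver list had 4 measured members, of which 1 was lower at day 7 than at day 3 (6.45% of all compared entries were), with a median of -0.80. At day 14, 3 were higher than at day 7 (19.7% of all were), with a median of 1.42. These members are also made in gut and other tissues. The hepatocyte miRNA miR-122-5p, the defining liver marker, was under the 50-read limit and did not follow them: it had 30, 26 and 1 reads, a ratio of 83.6-fold lower at day 14 than at day 7 with a counting interval of 13.7 to 3428. miR-194-5p, which is co-transcribed with miR-192 and miR-215, had 5, 0 and 32 reads. Among the epithelial, gut and pancreas members miR-215-5p and miR-375-3p parted, with day 14 against day 7 at 1.92 and -0.63, and miR-205-5p, an epithelial miRNA with 112, 66 and 160 reads, was 2.43-fold lower at day 14 than at day 3 (1.89 to 3.11).

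The myeloid and platelet list had 10 measured members, 5 of them seen at 50 reads at day 14 alone. At day 7, 1 of the 5 that could be compared was lower than at day 3 and 0 were higher. At day 14, 5 of 10 were higher than at day 7 and 0 lower, against 19.7% and 15% of all compared entries, with a median of 0.78. Of these 5, 3 (miR-126-3p, miR-126-5p and miR-199a-3p) are also in the vascular list. miR-126-3p, miR-142-3p and miR-24-3p, also among these 5, reached 50 reads at day 14 alone. Their higher value at day 14 was thus in part built into their choice. Over the 4 list members seen at every day the median was 0.95. Its most abundant member, miR-191-5p, had 1614, 2057 and 1228 CPM and a log2 ratio of -0.74 for day 14 against day 7, so the list's sum, 2009, 2405 and 1855 CPM, went against its median. miR-223-3p, the main neutrophil miRNA, had 13, 15 and 67 reads with a log2 ratio of 0.44.

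Lymphocyte miRNAs stayed within 2-fold at each step in all 6 measured members, with medians of -0.27 and 0.10. Over the whole course miR-150-5p, of mature lymphocytes, was 2.12-fold lower at day 14 than at day 3 (2.05 to 2.19), miR-342-3p had 60, 53 and 96 reads and a log2 ratio of -1.08, both with a positive sign on the library total, and miR-29a-3p, with 45, 65 and 348 reads, was 2.23-fold higher (1.63 to 3.11). miR-155-5p, induced on lymphocyte and macrophage activation, had 6, 2 and 3 reads. Inflammation feedback miRNAs had medians of -0.38 and 0.42 over 5 members, led by miR-21a-5p. miR-146a-5p, a brake on innate signalling, had 97, 89 and 384 reads and log2 ratios of -0.23 and 0.42.

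Erythroid miRNAs did not move together. Of 9 measured, 0 were past the size rule at day 7. At day 14, 0 were higher than at day 7 and 4 lower, against 19.7% and 15% of all compared entries, namely miR-486-5p, miR-486-3p, miR-92a-3p and miR-144-3p, the last 3 with a positive sign on the library total. miR-16-5p, by contrast, had 733, 743 and 1379 CPM and was 1.85-fold higher at day 14 than at day 7 (1.78 to 1.93), and miR-451a had 776, 765 and 4012 reads and a log2 ratio of 0.70. As a gauge of red cell lysis, miR-451a over miR-23a-3p stood at 23.5 at day 3 (16.6 to 34.4), 13.7 at day 7 (10.4 to 18.3) and 26.4 at day 14 (22.4 to 31.2). This ratio was lower at day 7 than at day 14 beyond counting error. Its denominator miR-23a-3p had 33, 56 and 152 reads at days 3, 7 and 14. For day 7 against day 3 the log2 ratio of miR-23a-3p was 0.63 and that of miR-451a -0.13. The part of red cell lysis in the turns at day 7 was not tested.

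The let-7 family had 8 measured members, all with log2 ratios under 0 for day 7 against day 3 (median -0.60, range -0.82 to -0.01; the members nearest 0, let-7a-5p and let-7d-5p, lie above it on the library total), and 0 past the size rule at either step. For day 14 against day 7 the median was -0.33, with 6 of 8 under 0. Over the whole course all 8 were under 0 (median -0.85) and 2 passed the size rule, let-7c-5p and let-7b-5p. The signs of the second step and of the whole course hold on the TMM scale: scaled to the library total, all 8 lie above 0 in both. In sum the family took 12.0%, 8.56% and 6.34% of the reads outside the pair.

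Of the miR-30 family, 0 of 5 compared members were past the size rule at day 7, and 2 of 7 were higher at day 14 than at day 7 (median 0.67), near the share of 19.7% over all compared entries, with a sum of 4.19%, 5.03% and 8.99% of the reads outside the pair. For the miR-10, miR-99, miR-100 and miR-125 group the sum was 8.41%, 7.73% and 18.1%, nearly all of it miR-10b-5p and miR-10a-5p. In this group 1 of 7 was higher at day 14 than at day 7 (median 0.52), while over the 5 seen at every day the median was -0.46, with miR-125a-5p at -0.66 and miR-99b-5p at -0.54. The miR-17 to miR-92 clusters had 1 higher and 1 lower of 5 (median 0.47). Of the 5, 2 reached 50 reads at day 14 alone, the higher one (miR-19b-3p with 33, 22 and 205 reads) among them, and over the 3 seen at every day the median was 0.036. The miR-15, miR-16, miR-103 and miR-107 group had 1 lower of 5 (median 0.50), miR-15b-5p, which reached 50 reads at day 14 alone. The Dlk1-Dio3 imprinted cluster had 0 of 4 past the size rule at either step (medians -0.03 and -0.20). Neuron and glia miRNAs had 4 measured members, medians of 0.67 and -0.60, and 0 past the size rule. Of the miR-378 family's 3 measured members, 2 reached 50 reads at day 14 alone, and the one seen at every day, miR-378a-3p, was at 0.74 and -0.44. The muscle list had 2, miR-133a-3p and miR-378a-3p, at 0.94 and 0.74 for day 7 against day 3, while miR-1a-3p had 1, 2 and 0 reads and miR-206-3p 0, 1 and 0.

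**Figure D4:**
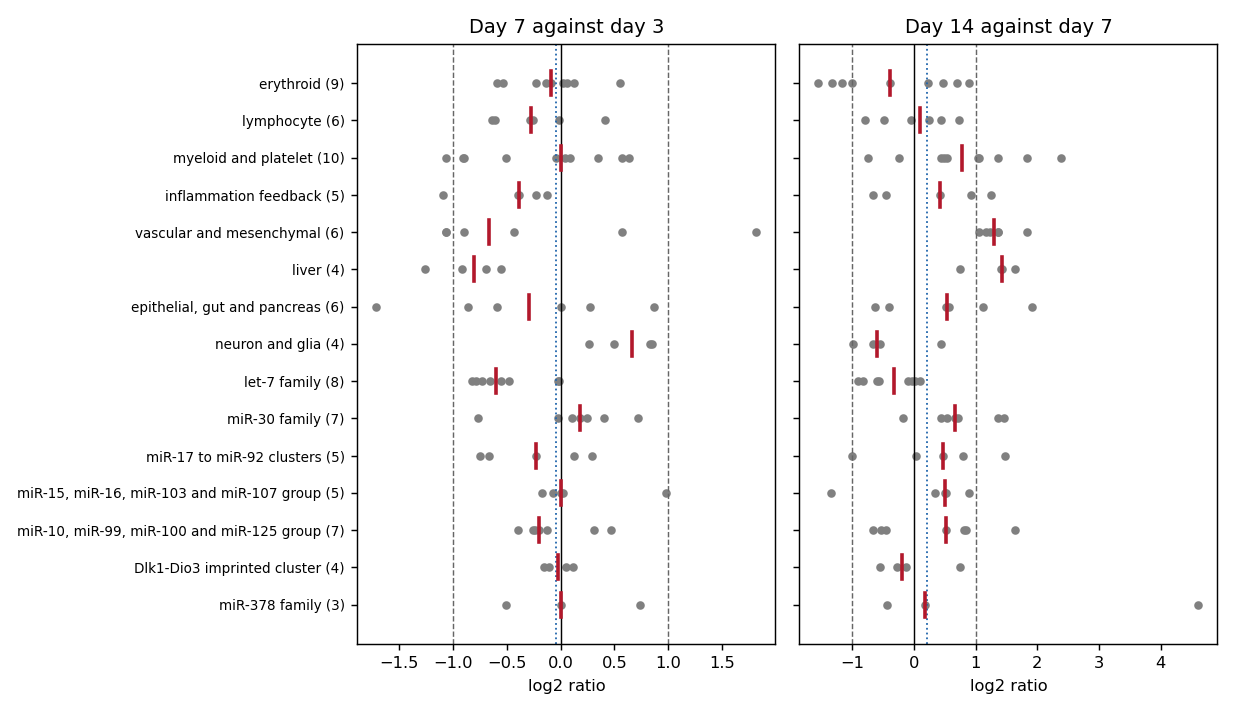
Log2 ratio of each measured member of the 15 lists with at least 3 (number measured in brackets) for day 7 against day 3 (left) and day 14 against day 7 (right); grey points are members, red bars list medians, the dotted blue line the median of all 128 measured entries and dashed lines 2-fold. All 6 vascular and mesenchymal members lie between 1.05 and 1.84 on the right.

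Members with the same seed could part. In the AUUGCAC group the log2 ratios of day 14 against day 7 ran from -1.92 in miR-92b-3p to 0.47 in miR-25-3p, with miR-92a-3p between them, although the 3 lay within 0.36 of each other for day 7 against day 3. In the same library, the ratio of miR-25-3p to miR-92a-3p was 0.442 at day 3 (0.431 to 0.453), 0.565 at day 7 (0.552 to 0.579) and 1.57 at day 14 (1.54 to 1.59). In the AGCAGCA group miR-15b-5p, with 20, 44 and 53 reads, was at -1.35 and miR-16-5p at 0.89 for day 14 against day 7. They are neighbours on chromosome 3, but the mature miR-16-5p also comes from chromosome 14. These values therefore cannot show whether the neighbours parted. Other groups stayed close at that step, among them GCUACAU (miR-221-3p and miR-222-3p, 0.11 apart), GCAGCAU (miR-103-3p and miR-107-3p, 0.15 apart) and UGACCUA (miR-192-5p and miR-215-5p, 0.28 apart).

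Some neighbouring genes and some strands of 1 precursor parted as well. miR-451a and miR-144-3p, made from adjacent hairpins on chromosome 11, had within-library ratios of 11.2 (8.78 to 14.6), 15.6 (11.7 to 21.3) and 59.0 (46.4 to 76.1) at days 3, 7 and 14. By contrast, miR-27b-3p and miR-24-3p, next to each other on chromosome 13, were both higher at day 14 than at day 7, at 1.15 and 2.39. The value of miR-24-3p rests on 8, 4 and 85 reads. The mature miR-24-3p also comes from chromosome 8, so its reads are not of the chromosome 13 locus alone. Of the precursors with both strands measured, Mir423 had miR-423-3p to miR-423-5p ratios of 0.0727 (0.0655 to 0.0805), 0.151 (0.140 to 0.164) and 0.225 (0.210 to 0.242), a move in the same direction at each step. The ratio of let-7d-3p to let-7d-5p lay under 1 at day 3 and over 1 after it, with 0.763 (0.643 to 0.905) at day 3, 1.57 (1.37 to 1.81) at day 7 and 1.24 (1.11 to 1.38) at day 14. The opposite strand of miR-215-5p, miR-215-3p, had 25, 35 and 189 reads and no trough, with log2 ratios of 0.36 and 0.73.

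Base composition went with the changes. The 106 matched entries were divided into 3 classes of similar size by the GC content of the mature sequence. For them the median log2 ratio of day 14 against day 7 was 0.55 in the low class (27.3% to 42.1% GC, 36 entries), 0.46 in the middle class (42.9% and above, 37 entries) and -0.61 in the high class (52.2% to 66.7%, 33 entries). At that step the high class held 3 higher and 10 lower of 32 compared entries, the middle class 6 and 1 of 37, and the low class 11 and 2 of 36. Over all compared entries 19.7% were higher and 15% lower. Some of the higher entries, such as miR-24-3p in the high class and miR-19b-3p in the low class, reached 50 reads at day 14 alone. The 11 include the identically counted miR-199a-3p and miR-199b-3p. For day 7 against day 3 the order was the other way, with medians of -0.49, 0.02 and 0.12. Over the 64 matched entries seen at every day, Pearson's r of GC content with the log2 ratio was 0.43 at the first step and -0.58 at the second, and over the 40 with 200 or more reads at every day it was 0.51 and -0.54. These correlations are across miRNAs of the same libraries, which are not independent replicates, and both steps share the day 7 library. For day 14 against day 3, without that library, r was -0.36 over the 64, -0.28 over the 40 and -0.15 over all 106 matched entries. In the untreated arm r over the same 64 was 0.23, -0.13 and 0.17 for the 3 comparisons. Among the miRNAs named above, miR-92a-3p, miR-92b-3p and miR-423-5p have 57.1%, 63.6% and 56.5% GC, miR-10b-5p, miR-30a-5p and miR-215-5p have 43.5%, 45.5% and 38.1%, and the rising miR-574-3p, with 59.1%, goes against the trend. Whether the difference comes from library making or from serum was not tested.

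**Figure D5:**
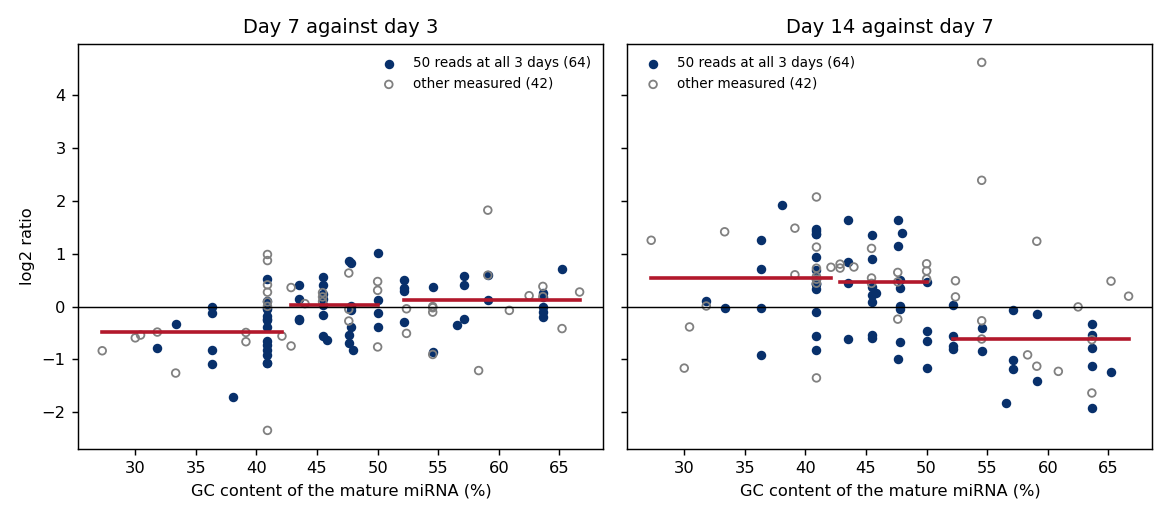
Log2 ratio against GC content of the mature miRNA (%) for day 7 against day 3 (left) and day 14 against day 7 (right), 106 entries; filled points had 50 reads at all 3 days, open points did not, and red bars are medians of the 3 GC classes. On the right the high class has a median of -0.61 and the low class 0.55.

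Beside the untreated arm, which also had 1 library per day, the difference between arms has no test. The trough of miR-215-5p was present in both arms, with 505, 154 and 582 CPM in FK506 serum and 170, 48.6 and 184 CPM in untreated serum at days 3, 7 and 14. miR-10b-5p had 1650, 1380 and 4281 CPM in FK506 serum and 2482, 283 and 1384 CPM in untreated serum, so FK506 serum was the higher at days 7 and 14 and the lower at day 3. miR-574-3p had 18, 72 and 550 reads in FK506 serum and 28, 45 and 26 in untreated serum. miR-423-5p had 1575, 1241 and 351 CPM in FK506 serum and 777, 2060 and 1501 CPM in untreated serum. The untreated day 7 library stood apart from the rest of the series in its neuronal miRNAs, with 7683 reads of miR-9-5p, against 1 at untreated day 3 and 0 at untreated day 14.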

How the data were processed

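Small RNA of mouse serum was sequenced, and the authors deposited raw read counts per mature miRNA entry, 1 column per library. Per the labels' protocols, RNA was size-selected on gels, ligated and barcoded with the TruSeq small RNA kit, 11 libraries shared a lane, and trimmed reads of 15 to 29 nt were matched to miRBase v20.0 with Bowtie and BLAST. The labels state no tool versions, genome build or rule for reads with several matches.

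Totals ran from 4992998 to 5806228 counts in the FK506 libraries. Reads carry no molecular identifiers, so intervals and the floor of 3 reads cover counting error only. Effective library sizes came from TMM (edgeR 4.0.16, R 4.3.3) over the 153 entries that filterByExpr kept at a minimum count of 10 in all 6 libraries. Log2 ratios used a prior count of 2; folds with intervals used none. The rule for naming took, per comparison, the 12 highest and 12 lowest past the size rule, the entries of the steady and turning classes, the 10 most abundant and 4 per list, and the text gives part of them; miR-186-5p, miR-342-3p, miR-27b-3p, miR-1839-5p, miR-30a-3p, miR-1306-5p, miR-451a, miR-23a-3p, miR-223-3p, let-7d-5p, miR-215-3p, miR-25-5p, miR-320-3p, miR-676-3p, miR-744-5p and the entries under 50 reads were named after their values were seen. Members and lists were chosen with earlier results of these data known. The calculation was tested on simulated counts. Alternatives were other scalings (DESeq2 1.42.0 median of ratios among them), read limits, prior count, step size and size rule. The sequences and coordinates are RefSeq's and GENCODE's for GRCm38, and were matched by name.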

Additional observations from a re-analysis of the deposited data

Results flagged for a closer look

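The steps of 7 of the 128 measured miRNAs passed the size rule in opposite directions in the FK506 and the untreated arm. Each arm had 1 library per day, and the difference between arms was not tested. Of the 128, untreated serum had the reads to compare 101 at the first step and 102 at the second. Its calls were 36 higher and 18 lower at the first step, and 26 higher and 31 lower at the second. Both arms had a call in the same direction in 1 entry at the first step and in 8 at the second. The opposite calls are to be read beside these. In the FK506 arm miR-101a-3p had 57, 25 and 221 reads at days 3, 7 and 14. For day 7 against day 3, it had a log2 ratio of -1.26 in FK506 serum and 4.24 in untreated serum. For day 14 against day 7 it had 1.41 in FK506 serum and -4.13 in untreated serum. At that step miR-143-3p was at 1.16 with FK506 and -3.25 without, miR-27b-3p at 1.15 and -2.50, and miR-126-5p at 1.84 and -1.12. The others reached 50 reads in the FK506 arm at day 14 alone. miR-340-5p, with 20 reads at day 7 of that arm, was at 1.25 with FK506 and -3.27 without. miR-25-5p, with 43 and 61 reads at days 7 and 14 of that arm, was at -1.13 with FK506 and 1.27 without. miR-151-5p, with 10 reads at day 7 of that arm, was at 1.55 with FK506 and -2.90 without. Every one of these pairs uses the untreated day 7 library, which stood apart from the other libraries in its neuronal miRNAs.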

How the results depend on the processing

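No paired analysis was possible because each group holds 1 library. For the day 14 comparisons the library total moved the counts of calls furthest. Scaled to the library total, day 14 against day 7 gave 86 higher and 0 lower and day 14 against day 3 gave 92 and 0; 11 entries rose at both steps, 0 fell at both, 0 peaked at day 7, and 7 lists had a median above 0 for day 7 against day 3 (4 with TMM). Lower calls that changed sign there were, for day 14 against day 7, miR-92a-3p (0.49), miR-486-3p (0.16), miR-423-3p (0.24), miR-328-3p (0.25), let-7d-3p (0.32), miR-744-5p (0.36), miR-676-3p (0.30), miR-25-5p (0.30), miR-3107-3p (0.18), miR-181a-2-3p (0.058), miR-144-3p (0.27), miR-149-5p (0.19) and miR-15b-5p (0.069). Against day 3 they were miR-92a-3p (0.35), miR-150-5p (0.49), let-7c-5p (0.29), miR-486-3p (0.31), miR-375-3p (0.35), miR-320-3p (0.49), miR-744-5p (0.36), miR-342-3p (0.45), miR-328-3p (0.48), let-7b-5p (0.43), miR-125a-5p (0.52), miR-3107-3p (0.18), miR-205-5p (0.29), miR-1964-3p (0.24) and miR-149-5p (0.21). Of the 15 troughs, 12 remained among 20 under that scaling. Scaled to the reads outside the pair, 3 were lower at day 7 than at day 3, 2 rose and 3 fell at both steps, and 7 lists had a day 7 median above 0. TMM over the 3 FK506 libraries gave 2 that rose and 2 that fell at both steps, and TMM over all entries with a read gave 2 that rose. With median-of-ratios factors, a prior count of 0.5 or identical entries kept once, no count moved by over 1.5 times.

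The read limit acts mainly on rises at day 14. A limit of 20 reads gave 45 higher than at day 7 and 25 higher than at day 3, a limit of 100 gave 1 higher at day 7 than at day 3, 8 higher at day 14 than at day 3, 3 that fell at both steps and 7 lists with a day 7 median above 0, and 50 reads at every day gave 1, 13 and 3 higher for the 3 comparisons, 0 that rose and 3 that fell at both steps. A size rule of log2 0.58 gave 10 higher and 21 lower at day 7 than at day 3, 41 and 36 at day 14 than at day 7, and 31 and 35 at day 14 than at day 3. A step of log2 0.3 gave 4 that rose and 8 that fell at both steps, and a step of log2 1 gave 0 that fell, 2 peaks and 6 troughs.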
